A study of Mus musculus with 12 samples.

Results

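The WNT genes of the cycling mouse uterus were followed here over the 4 stages of the estrous cycle. They were 49 genes chosen by symbol: 9 WNT ligands, 2 genes of ligand secretion, 9 frizzled receptors, 2 LRP co-receptors, 3 other WNT receptors, 10 secreted or membrane antagonists, 6 genes of the R-spondin axis and 8 intracellular genes. All 49 were found among the 35896 genes of the tables. The samples were 12 whole uteri of wild-type Swiss Webster females, an outbred mouse stock, aged 8 to 12 weeks, with 3 uteri each in proestrus, estrus, metestrus and diestrus and no treatment or mutant allele in any of them. Replicates keep the numbers of their labels: 1, 2 and 3 in proestrus, 3, 4 and 5 in estrus and in diestrus, and 5, 6 and 7 in metestrus. Polyadenylated RNA was measured by 3' TagSeq, in which reads come from the 3' end of a transcript. The labels did not say how animals were staged, nor whether replicates shared a litter, a day or a batch, so the p-values measure the spread between these samples only.

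WNT proteins are lipid-modified secreted ligands, made with the acyltransferase Porcn and carried to the cell surface by Wls. In the canonical branch a ligand binds a frizzled receptor together with Lrp5 or Lrp6, which stops the destruction of beta-catenin (Ctnnb1) and lets it act with transcription factors of the TCF/LEF family. Wnt5a and Wnt11 are best known for acting through the non-canonical branches, with Ror1, Ror2 and Ryk among their receptors. In the mouse uterus Wnt7a is known as a ligand of the luminal epithelium, Wnt5a as a ligand of the stroma, and Wnt4 as a ligand that stromal cells need to decidualise.

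The libraries held 1652841 to 2200563 estimated counts, and 3 counts, the most that an observed 0 still allows, stood for 1.37 to 1.83 CPM (counts scaled to an equal library total). Levels below are CPM scaled by TMM factors of edgeR, in the order of the replicate numbers. Markers of stroma, smooth muscle and epithelium were present in every uterus, and in all 12 libraries 3 of 8 ovary markers (Amh, Cyp19a1, Nr5a1) and 5 of 7 markers of stratified squamous epithelium (Krt5, Krt14, Trp63, Krt4, Dsg3) held 3 counts or fewer. The ovary list summed to 30.5 to 91.2 CPM, with 1 of 3 tested genes called, lower in estrus than in proestrus, and 6 oviduct markers to 52.5 to 299 CPM, with 1 of 2 tested genes called higher and 1 lower at that step. Their part in the results was not tested. The metestrus uteri differed more among themselves than those of other stages: the summed level of 10 stromal markers ran from 7198 CPM in replicate 5 to 15488 CPM in replicate 6, and the gland genes Spink1 and Prss29 stood at 475 and 295 CPM in replicate 7 against at most 1.88 CPM in the other metestrus uteri. The summed level of 10 epithelial markers was 1775 to 2398 CPM in proestrus, 1598 to 1992 CPM in estrus, 694 to 1264 CPM in metestrus and 682 to 853 CPM in diestrus. In whole tissue, fewer cells of a type and less RNA per cell cannot be told apart.

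Many WNT genes changed with the stage. The antagonists Sfrp2, Dkk3 and Frzb and the R-spondin Rspo3 rose from proestrus to estrus, the antagonists Sfrp1 and Apcdd1 and the feedback inhibitor Nkd2 rose from estrus to metestrus, and the transcription factor Lef1 and the receptor Fzd2 were highest in diestrus. Of the 49 genes, 44 passed the filter on low counts, and 19 of these (43.2%) differed over the 4 stages in edgeR's quasi-likelihood F test (adjusted p under 0.05, Benjamini-Hochberg over all 12052 genes tested), where 23.2% of all tested genes did. The members, and the lists used below, were chosen with earlier results of these data known. Setting their shares beside those of all genes is therefore not a test. Wnt6, Wnt10b, Sfrp5, Wif1 and Notum did not pass the filter and were not tested. Without the filter Wnt6 and Wif1 passed the F test, and Wnt6 also passed it in 8 of the 12 fits that left out a library (any one of proestrus or metestrus, estrus replicate 3 or diestrus replicate 5). By role, the genes that differed were 4 of 7 tested ligands, 2 of 9 frizzled receptors, 2 of 3 other receptors, 5 of 7 tested antagonists, 2 of 6 genes of the R-spondin axis and 4 of 8 intracellular genes. No secretion gene and no LRP co-receptor passed that test.

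The stage means of the 19 genes were lowest in proestrus for 10 (52.6%), in estrus for 5, in diestrus for 4 and in metestrus for none. Among all 2793 genes that differed, 28.4% were lowest in proestrus and 34.0% in diestrus. Their highest mean lay in diestrus for 7 genes (Wnt11, Fzd1, Fzd2, Sfrp1, Sfrp2, Apcdd1, Lef1), in metestrus for 5 (Wnt7a, Dkk3, Lgr5, Nkd2, Tcf7), in estrus for 5 (Wnt16, Ror1, Frzb, Rspo3, Tcf7l2) and in proestrus for 2 (Wnt5a, Ror2). Those are 36.8, 26.3, 26.3 and 10.5% of the 19, and among all genes that differed the shares were 24.2% in diestrus, 6.59% in metestrus, 46.2% in estrus and 23% in proestrus. With each library left out in turn, 11 of the 19 genes passed the F test in all 12 fits: Fzd1, Fzd2, Sfrp1, Sfrp2, Frzb, Dkk3, Apcdd1, Rspo3, Nkd2, Lef1 and Tcf7l2. The other 8 lost it in at least 1 fit and are given with those libraries below. Of the 19 calls, limma-voom did not make those of Wnt7a, Wnt11, Ror1 and Lgr5 (adjusted p of 0.0715, 0.0538, 0.0921 and 0.0664), and library totals in place of TMM did not make that of Wnt7a (0.0526), while DESeq2 made all 19. No transcript of the 49 genes shared 100 or more 31-base words with another gene on the same strand.

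**Figure D1:**
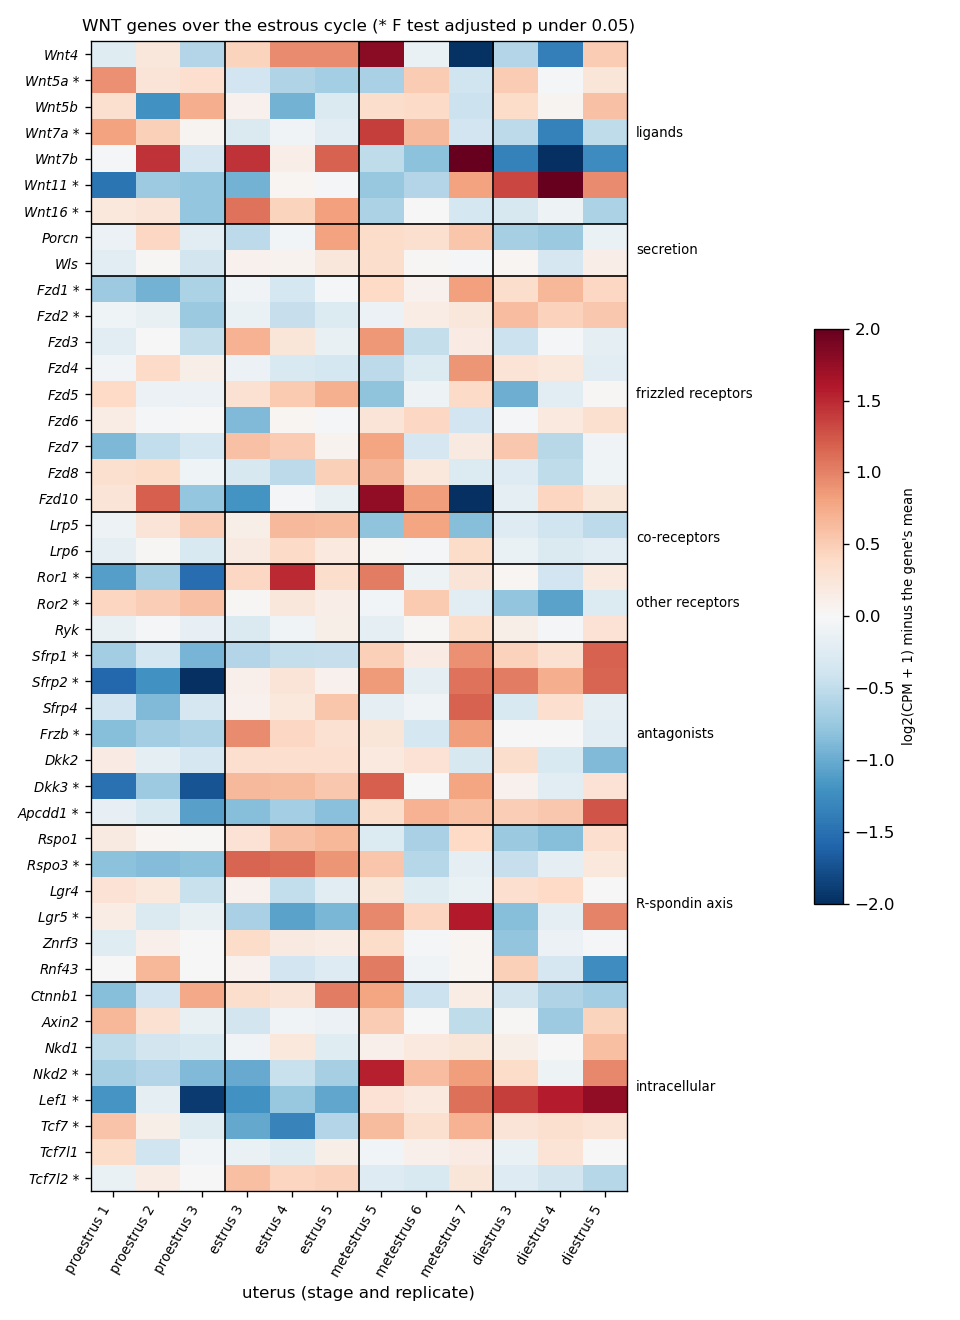
Each row is one of the 44 tested WNT genes, grouped by role, and each column one uterus; colour is log2(CPM + 1) minus the gene's mean over the 12 uteri, clipped at -2 and 2, and a star marks an F test adjusted p under 0.05 (19 genes). Sfrp2 and Dkk3 are lowest in the 3 proestrus uteri, Rspo3 is highest in the 3 estrus uteri, and Lef1 is highest in the 3 diestrus uteri.

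RefSeq promoter windows, from 250 bases before to 50 bases after a transcript start on GRCm38.p6, were at hand for 32 of the 49 genes (42 windows). Shown are those of the gene with the smallest F test p among the ligands, frizzled receptors, antagonists and intracellular genes that differed and had a window, 5' to 3' on the gene's strand. For Lef1 it is the window inside the gene that holds a TCF/LEF match, and for Wnt11 the first of 2. Capitals mark a match to the TCF/LEF core (CTTTGAA, its variants ending in AT, TA and TT in place of AA, all read on both strands), and a window without capitals holds no match to any motif searched.
Wnt11 promoter, chr7:98834862-98835161, plus strand: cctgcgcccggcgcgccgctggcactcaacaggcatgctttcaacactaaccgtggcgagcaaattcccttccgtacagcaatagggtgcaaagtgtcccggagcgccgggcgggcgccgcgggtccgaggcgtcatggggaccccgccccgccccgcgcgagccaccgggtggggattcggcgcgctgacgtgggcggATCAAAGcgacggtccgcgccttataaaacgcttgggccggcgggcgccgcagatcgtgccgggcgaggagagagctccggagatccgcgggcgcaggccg
Fzd1 promoter, chr5:4758167-4758466, minus strand: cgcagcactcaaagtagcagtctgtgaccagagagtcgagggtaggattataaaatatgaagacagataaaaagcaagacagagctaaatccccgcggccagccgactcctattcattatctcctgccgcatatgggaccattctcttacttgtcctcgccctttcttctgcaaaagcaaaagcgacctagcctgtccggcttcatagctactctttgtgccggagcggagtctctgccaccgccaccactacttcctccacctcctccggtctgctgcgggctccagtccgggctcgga
Sfrp2 promoter, chr3:83766071-83766370, plus strand: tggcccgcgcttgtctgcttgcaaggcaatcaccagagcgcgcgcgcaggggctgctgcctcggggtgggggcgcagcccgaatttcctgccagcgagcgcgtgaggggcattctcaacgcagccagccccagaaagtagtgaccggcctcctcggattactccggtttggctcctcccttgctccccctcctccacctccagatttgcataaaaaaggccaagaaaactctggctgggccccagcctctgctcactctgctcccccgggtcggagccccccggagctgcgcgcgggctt
Lef1 internal promoter, chr3:131156044-131156343, plus strand: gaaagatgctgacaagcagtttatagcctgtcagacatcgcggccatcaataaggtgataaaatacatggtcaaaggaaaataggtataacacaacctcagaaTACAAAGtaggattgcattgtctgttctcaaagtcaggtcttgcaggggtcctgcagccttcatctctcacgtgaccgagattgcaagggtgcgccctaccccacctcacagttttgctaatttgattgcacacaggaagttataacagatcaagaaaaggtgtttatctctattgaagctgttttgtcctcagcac
The match lay 51 bases before the start in Wnt11 and 147 bases before it in Lef1, on the minus strand in both. The other 3 windows of Lef1 and the other window of Wnt11 held no match. The core was present in 5 of the 42 windows (11.9%; the others belonged to Tcf7l2, Fzd7 and Wnt5b) and in 16.9% of 32851 promoters of the genome. The estrogen receptor half-site AGGTCA, searched on both strands, was found in 3 windows (7.14%; Frzb, Tcf7 and Wnt16) and in 16.3% of all promoters. Neither the full estrogen response element, GGTCA with its reverse complement 3 bases on (0.07% of promoters), nor the element read by progesterone and glucocorticoid receptors, GNACA with its reverse complement 3 bases on (0.475%), occurred in any of the 42. A match is a description of these letters and not a binding site.

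Wnt5a, the stromal ligand, was lower in estrus than in proestrus or diestrus. The gene lies on GRCm38 chromosome 14, 28504750 to 28527448, plus strand. It stood at 409, 258 and 273 CPM in proestrus, 165, 143 and 135 CPM in estrus, 138, 307 and 165 CPM in metestrus and 307, 212 and 255 CPM in diestrus. Every estrus uterus was below every proestrus and diestrus uterus, and metestrus spanned both. The summed stromal markers ran between 13773 and 14015 CPM in proestrus, between 10983 and 11527 CPM in estrus and between 9575 and 13207 CPM in diestrus, with 1 of 10 called higher and 3 lower in estrus than in proestrus. In metestrus their lowest sum, 7198 CPM in replicate 5, and their highest, 15488 CPM in replicate 6, fell in the uteri with the lowest and highest Wnt5a of that stage. Their part in the level of Wnt5a was not tested. Expression fell 2.12-fold from proestrus to estrus (log2 difference -1.09 ± 0.27 (SE), adjusted p = 0.0151) and was 1.75-fold higher in diestrus than in estrus (log2 difference 0.81 ± 0.27 (SE), adjusted p = 0.0444). The step into estrus lost its call without proestrus replicate 1 (0.0728), estrus replicate 4 (0.0514) or estrus replicate 5 (0.0579), and the F test (adjusted p = 0.0385) passed in 5 of 12 such fits, with the highest value, 0.114, without estrus replicate 5. Diestrus against estrus held in 5 of the 12, with adjusted p up to 0.149 without diestrus replicate 3. With counts rebuilt from TPM all 3 calls were lost (F test 0.129, estrus against proestrus 0.0627, diestrus against estrus 0.207). Wnt5a made up 41.5 to 82.0% of the summed counts of the 9 ligands (median 72.9%). On the TPM scale deposited by the authors, which divides by effective length, its share of the ligand sum was 24.6 to 63.4% (median 50.5%), and there Wnt4 exceeded it in metestrus replicate 5, with 36.9% against 24.6%.

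Wnt7a, the epithelial ligand, differed over the stages but in no single pair of them in the edgeR fit of all 12 samples. Its level was 36.2, 28.9 and 21.2 CPM in proestrus, 16.6, 19.3 and 17.3 CPM in estrus, 54.6, 32.6 and 15.4 CPM in metestrus and 13.9, 7.36 and 14.05 CPM in diestrus. The 3 diestrus uteri all lay below the 3 estrus uteri, and metestrus replicate 5 alone rose above the proestrus range. In the F test the adjusted p was 0.0333, and of the pairs proestrus against diestrus came nearest (log2 difference 1.29 ± 0.40 (SE), adjusted p = 0.061). That pair was called by DESeq2, without the count filter, in a fit of those 2 stages alone and without metestrus replicate 5 or 7. Diestrus against metestrus was called by DESeq2 and without the count filter or metestrus replicate 7. Metestrus against estrus was called without the count filter or metestrus replicate 7, and estrus against proestrus in a fit of those 2 stages. The F call held in 4 of 12 fits that left out a library and was lost without proestrus replicate 1 or 2 or any one estrus or diestrus library, with adjusted p from 0.0564 to 0.0864. Epithelial markers moved over the same uteri, 9 of 10 being lower in diestrus than in estrus. Per 1000 CPM of the summed epithelial markers Wnt7a gave 11.8 to 20.4 CPM in proestrus, 8.67 to 10.4 CPM in estrus, 22.2 to 43.2 CPM in metestrus and 10.8 to 19.6 CPM in diestrus, so the position of diestrus below estrus was not kept on that scale.

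Wnt11 was a diestrus gene at low level. It gave 0.566, 1.61 and 1.51 CPM in proestrus, 1.23, 3.41 and 3.18 CPM in estrus, 1.55, 1.88 and 6.51 CPM in metestrus and 9.90, 18.6 and 7.31 CPM in diestrus. All 3 diestrus values were above the 9 others, of which the 3 proestrus libraries held 1, 3 and 3 counts, so the ratio to proestrus rests on few reads. Diestrus exceeded proestrus 9.23-fold (proestrus minus diestrus, log2 difference -3.21 ± 0.64 (SE), adjusted p = 0.00711), or 9.76-fold as the ratio of summed, scaled counts (exact 95% interval 4.5 to 25.2, counting error only), and exceeded estrus 4.43-fold (log2 difference 2.15 ± 0.57 (SE), adjusted p = 0.0152). The F test (adjusted p = 0.00693) lost its call without diestrus replicate 4 (0.0546), the highest library, and diestrus against estrus lost its call without that library (0.0839) or estrus replicate 3 (0.064). Gm8398, a gene on the opposite strand, holds the reverse complement of 8.02% of the 31-base words of Wnt11 transcripts, and without strand reads from that stretch cannot be told apart. Of the Wnt11 counts, 75.1% fell in protein-coding transcripts.

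Wnt16 showed the opposite placement, with its highest values in estrus. They were 11.9, 12.3 and 5.54 CPM in proestrus, 22.7, 14.2 and 18.6 CPM in estrus, 6.18, 10.03 and 7.69 CPM in metestrus and 7.92, 9.32 and 6.18 CPM in diestrus. The 3 estrus uteri were above the 9 others. Estrus exceeded diestrus 2.34-fold (diestrus minus estrus, log2 difference -1.23 ± 0.33 (SE), adjusted p = 0.017), a call lost without estrus replicate 3 (0.0682) or 5 (0.0514) or diestrus replicate 3 (0.0523) or 5 (0.0667). The F test gave 0.0306 and failed without estrus replicate 3 (0.141), estrus replicate 5 (0.108), diestrus replicate 3 (0.057) or diestrus replicate 5 (0.0563). Its metestrus value was 2.33-fold below estrus (adjusted p = 0.0443), a call kept in only 1 of 12 such fits.

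Wnt4, the ligand that stromal cells need to decidualise, did not pass the F test (adjusted p = 0.395). Its level was 27.7, 39.1 and 21.7 CPM in proestrus, 45.4, 64.7 and 64.6 CPM in estrus, 118, 30.1 and 7.69 CPM in metestrus and 21.8, 12.3 and 47.2 CPM in diestrus. The metestrus uteri covered the whole range of the gene, with the highest and the lowest of the 12 values. The highest fell in replicate 5, with a stromal marker sum of 7198 CPM and an epithelial one of 1264 CPM. The lowest fell in replicate 7, with sums of 13735 and 694 CPM. The part of these cell types in the level of Wnt4 was not tested. In the uteri of the other stages, an alternative chosen after seeing the data, the F test gave an adjusted p of 0.0333, and 2 of its 3 estrus values were above every proestrus and diestrus value. Wnt7b, a ligand of epithelia, ran from 0 to 26.6 CPM, with its highest value in metestrus replicate 7. It was 12.4-fold lower in diestrus than in estrus (log2 difference -3.63 ± 1.18 (SE), adjusted p = 0.04), a call that limma-voom did not make (0.116). The 3 diestrus libraries held 2, 0 and 2 counts (ratio of estrus to diestrus in summed, scaled counts 13.6, exact 95% interval 5 to 51.7, counting error only). Over the 4 stages DESeq2 (adjusted p = 0.017) and the fit without the count filter (0.0085) called it, but its F test with the filter did not pass (adjusted p = 0.104). Leaving out 1 library moved that F value from 0.0178 to 0.267, and the call against estrus was lost in 5 of 12 such fits, without estrus replicate 3 (0.1) or 5 (0.0935) or diestrus replicate 3 (0.0909), 4 (0.125) or 5 (0.0829). Wnt5b, a close relative of Wnt5a, ran from 2.68 to 13.1 CPM (F test adjusted p = 0.615). Of the untested ligands, Wnt6 reached 9.90, 10.8 and 5.06 CPM in diestrus against at most 3.76 CPM elsewhere, and Wnt10b had a single count in 12 libraries.

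The 2 secretion genes gave no called difference. Wls, the carrier of WNT proteins, ran from 119 to 196 CPM (F test adjusted p = 0.345). Porcn, the acyltransferase, ran from 8.83 to 27.7 CPM (0.182), with 8.38% of its estimated counts in protein-coding transcripts.

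**Figure D2:**
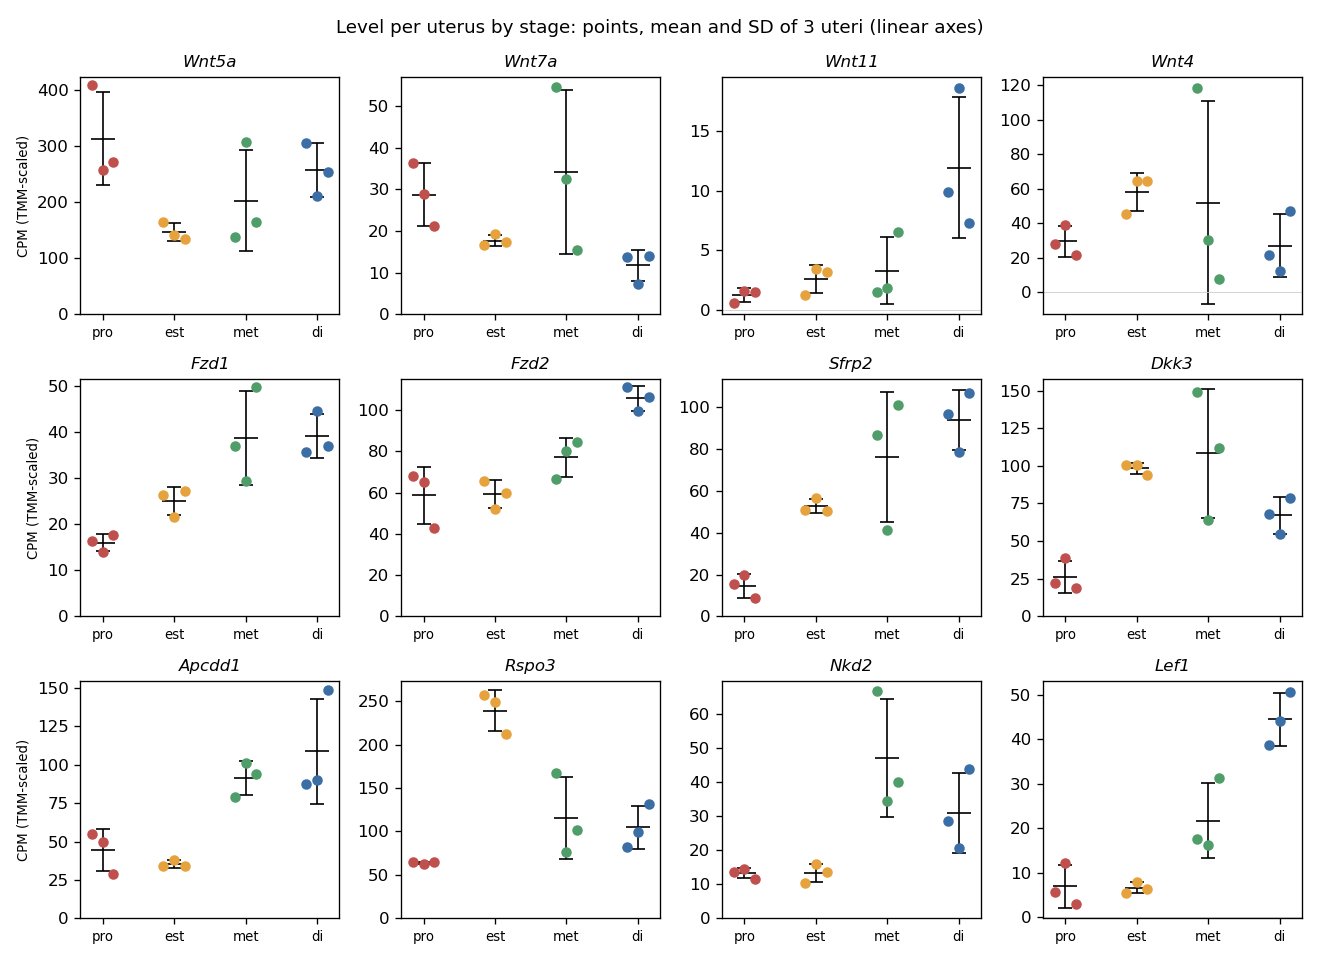
CPM of 12 WNT genes by stage on linear axes: each point is a uterus, the bar and whiskers are the mean and SD of 3 uteri (pro, est, met and di stand for proestrus, estrus, metestrus and diestrus). The estrus uteri of Rspo3 (212 to 257 CPM) and the diestrus uteri of Lef1 (38.6 to 50.6 CPM) do not overlap the other stages, while the metestrus uteri of Wnt4 run from 7.69 to 118 CPM.

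Among the frizzled receptors, the seven-pass proteins that bind WNT, Fzd1 and Fzd2 rose toward diestrus. Fzd1 gave 16.4, 13.9 and 17.6 CPM in proestrus, 26.4, 21.6 and 27.3 CPM in estrus, 37.1, 29.5 and 49.7 CPM in metestrus and 35.6, 44.7 and 37.1 CPM in diestrus. Proestrus lay below estrus, and estrus below metestrus and diestrus, with no overlap between those 3 blocks. Diestrus exceeded proestrus 2.44-fold (proestrus minus diestrus, log2 difference -1.29 ± 0.21 (SE), adjusted p = 0.00235), and metestrus exceeded proestrus 2.42-fold (log2 difference 1.27 ± 0.22 (SE), adjusted p = 0.00958), a call lost without proestrus replicate 2 (0.0533) and in a fit of those 2 stages alone (0.0628). The F test adjusted p was 0.00215.

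Fzd2, a close relative of Fzd1, stood at 68.0, 65.3 and 42.8 CPM in proestrus, 65.7, 52.2 and 60.02 CPM in estrus, 66.4, 80.2 and 84.6 CPM in metestrus and 111, 99.6 and 106 CPM in diestrus. The 3 diestrus uteri were above all others, and proestrus and estrus overlapped. Diestrus exceeded estrus 1.78-fold (log2 difference 0.83 ± 0.17 (SE), adjusted p = 0.00387) and proestrus 1.80-fold (proestrus minus diestrus, log2 difference -0.85 ± 0.17 (SE), adjusted p = 0.00778), and both calls held with every library left out in turn. The other 7 frizzled genes did not pass the F test: Fzd7 came nearest (adjusted p = 0.141, 9.06 to 31.4 CPM), and Fzd3, Fzd4, Fzd5, Fzd8 and Fzd10 had values from 0.233 to 0.702. Fzd6 stood at 12.5, 10.7 and 11.1 CPM in proestrus, 5.53, 11.4 and 10.9 CPM in estrus, 13.4, 15.0 and 8.29 CPM in metestrus and 10.9, 12.8 and 14.05 CPM in diestrus (F test adjusted p = 0.674). Its stages overlapped throughout.

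The summed level of the 9 frizzled genes was 134 to 173 CPM in proestrus, 173 to 197 CPM in estrus, 193 to 241 CPM in metestrus and 226 to 231 CPM in diestrus. Fzd1 and Fzd2 were called in 2 pairs with diestrus each. The median log2 difference of the 9 genes from estrus to diestrus was 0.40 against 0.00 for all tested genes. For proestrus minus diestrus that median was -0.0106 against -0.0003, so the rise of the sum between those stages was not shared by the 9 as a set. Stromal markers, summed, gave 13773 to 14015 CPM in proestrus and 9575 to 13207 CPM in diestrus, and 4 of the 10 were called higher and 0 lower in diestrus than in proestrus. Their part in the frizzled levels was not tested.

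The LRP co-receptors did not pass the F test. Lrp6 ran from 49.4 to 80.6 CPM (adjusted p = 0.0649) and was 1.40-fold lower in diestrus than in estrus (log2 difference -0.48 ± 0.15 (SE), adjusted p = 0.0309), a call lost without any one estrus or diestrus library, at 0.0521 to 0.142. Lrp5 ran from 2.96 to 11.3 CPM (0.342), and only 5.95% of its counts fell in protein-coding transcripts.

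Ror1 and Ror2, the receptor tyrosine kinases that bind Wnt5a, had their lowest values in different stages. Ror1 rose from 1.70, 2.68 and 1.01 CPM in proestrus to 6.76, 15.3 and 6.37 CPM in estrus, with 10.8, 4.39 and 5.92 CPM in metestrus and 4.95, 3.44 and 5.62 CPM in diestrus. Every proestrus value was below the 9 others, and the estrus value of replicate 4 was the highest. That rise was 5.13-fold (log2 difference 2.36 ± 0.55 (SE), adjusted p = 0.0111) and lost its call without proestrus replicate 3 (0.0568) or estrus replicate 4 (0.0646). The proestrus libraries held 3, 5 and 2 counts, and the ratio of the summed, scaled counts was 5.23 (exact 95% interval 2.63 to 11.5, counting error only). The F test (0.0295) failed without proestrus replicate 1 (0.085), proestrus replicate 3 (0.105) or estrus replicate 4 (0.0776).

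Ror2 gave 19.8, 20.9 and 22.2 CPM in proestrus, 14.7, 17.0 and 15.9 CPM in estrus, 13.9, 21.3 and 12.4 CPM in metestrus and 7.92, 6.38 and 11.8 CPM in diestrus. Diestrus lay below all other uteri, and proestrus above all but metestrus replicate 6. Proestrus exceeded diestrus 2.42-fold (log2 difference 1.27 ± 0.27 (SE), adjusted p = 0.0102), a call lost without diestrus replicate 4 (0.0537). From proestrus to estrus the difference was -0.40 ± 0.26 (SE) on the log2 scale and was not called (adjusted p = 0.32). The F test (0.0221) failed without proestrus replicate 2 (0.0513), proestrus replicate 3 (0.0587), diestrus replicate 3 (0.0789) or diestrus replicate 4 (0.0853). Ryk, another WNT receptor, ran from 109 to 172 CPM (F test adjusted p = 0.509), with 4.72% of its counts in protein-coding transcripts.

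Antagonists held more called genes than any other role, and 4 of the 5 (Sfrp1, Sfrp2, Frzb and Dkk3) had their lowest mean in proestrus. Secreted frizzled-related proteins (Sfrp1, Sfrp2, Sfrp4, Sfrp5 and Frzb) bind WNT outside the cell, Dkk2 acts on LRP co-receptors, Dkk3 is a relative of the Dickkopf inhibitors, and Apcdd1 is a membrane protein that blocks WNT and its receptors. Of the 7 tested antagonists, 5 passed the F test, which 23.2% of all genes passed. The same 5 were higher in metestrus than in proestrus, as were 2.49% of all genes; with each library left out in turn that call was kept in 12 fits for Sfrp2 and Dkk3, 8 for Sfrp1 and Apcdd1 and 3 for Frzb.

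Sfrp2 had the smallest F test p of the antagonists (adjusted p = 0.000428). Its locus is chromosome 3, 83766321 to 83774316, plus strand (GRCm38). It rose from 15.3, 19.8 and 8.57 CPM in proestrus to 51.0, 56.8 and 50.5 CPM in estrus, 86.5, 41.4 and 101 CPM in metestrus and 97.0, 78.5 and 107 CPM in diestrus. Each proestrus uterus was below all 9 others, and metestrus replicate 6 lay below the estrus range while the other metestrus uteri were above it. Estrus exceeded proestrus 3.63-fold (log2 difference 1.86 ± 0.33 (SE), adjusted p = 0.00258), metestrus exceeded it 5.27-fold (log2 difference 2.40 ± 0.32 (SE), adjusted p = 0.00379) and diestrus 6.47-fold (proestrus minus diestrus, log2 difference -2.69 ± 0.32 (SE), adjusted p = 0.000257). These 3 calls held with every library left out in turn. Diestrus against estrus was 1.78-fold (adjusted p = 0.0453) and held in 6 of 12 such fits, up to 0.133 without diestrus replicate 5.

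Dkk3 rose at the same step. Its locus is chromosome 7, 112116017 to 112159057, minus strand (GRCm38). It stood at 22.1, 38.5 and 18.6 CPM in proestrus, 101, 101 and 94.1 CPM in estrus, 149, 63.9 and 112 CPM in metestrus and 68.3, 54.5 and 78.7 CPM in diestrus. Proestrus did not overlap any other stage, and the 3 diestrus uteri were below the 3 estrus uteri. Estrus exceeded proestrus 3.72-fold (log2 difference 1.90 ± 0.30 (SE), adjusted p = 0.0015) and metestrus exceeded it 4.11-fold (log2 difference 2.04 ± 0.30 (SE), adjusted p = 0.00508), both calls holding in all 12 fits with a library left out, although the call of metestrus was lost in a fit of those 2 stages alone (0.0538). Diestrus was still 2.54-fold above proestrus (proestrus minus diestrus, log2 difference -1.34 ± 0.30 (SE), adjusted p = 0.0137), a call lost without proestrus replicate 1 (0.061), proestrus replicate 3 (0.069) or diestrus replicate 5 (0.0545). From estrus to diestrus the difference was -0.55 ± 0.28 (SE) and was not called (adjusted p = 0.171), although the groups did not overlap; it was called in a fit of those 2 stages alone and in both fits with a replicate block.

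Frzb, also known as Sfrp3, gave 18.1, 20.3 and 21.7 CPM in proestrus, 65.7, 45.4 and 41.8 CPM in estrus, 40.2, 26.3 and 61.0 CPM in metestrus and 33.7, 33.4 and 28.7 CPM in diestrus. Proestrus was again below all other uteri. The rise into estrus was 2.52-fold (log2 difference 1.33 ± 0.27 (SE), adjusted p = 0.00513) and held in all 12 fits. The F test adjusted p was 0.0123. Metestrus was 2.12-fold above proestrus (adjusted p = 0.0414), a call kept in 3 of the 12 and weakest without metestrus replicate 7 (0.146).

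Sfrp1 and Apcdd1 formed another pattern, low in proestrus and estrus and higher in metestrus and diestrus. Sfrp1 was at 20.4, 26.2 and 17.1 CPM in proestrus, 22.1, 23.8 and 24.1 CPM in estrus, 47.4, 37.6 and 64.5 CPM in metestrus and 46.5, 41.7 and 77.0 CPM in diestrus. The 6 metestrus and diestrus uteri were all above the 6 proestrus and estrus uteri. Diestrus exceeded estrus 2.34-fold (log2 difference 1.23 ± 0.26 (SE), adjusted p = 0.00448) and proestrus 2.58-fold (proestrus minus diestrus, log2 difference -1.37 ± 0.26 (SE), adjusted p = 0.00581), and both calls held with every library left out. Metestrus exceeded estrus 2.13-fold (adjusted p = 0.0246), a call lost without any one estrus library or without metestrus replicate 7, at 0.0607 to 0.078. The F test adjusted p was 0.00269.

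Apcdd1 was likewise higher in metestrus and diestrus, at 54.9, 49.8 and 28.7 CPM in proestrus, 33.8, 38.0 and 34.1 CPM in estrus, 78.8, 101 and 94.1 CPM in metestrus and 87.1, 90.3 and 148 CPM in diestrus. Again the 6 uteri of metestrus and diestrus were above the other 6. Estrus had the lowest mean, although its difference from proestrus was not called. Metestrus exceeded estrus 2.58-fold (log2 difference 1.37 ± 0.25 (SE), adjusted p = 0.00583) and diestrus exceeded it 3.07-fold (log2 difference 1.62 ± 0.25 (SE), adjusted p = 0.000552). Diestrus exceeded proestrus 2.44-fold (proestrus minus diestrus, log2 difference -1.29 ± 0.24 (SE), adjusted p = 0.00497), and these 3 calls held in all 12 fits with a library left out. Metestrus exceeded proestrus 2.05-fold (adjusted p = 0.0314), a call lost without proestrus replicate 2 (0.0839), proestrus replicate 3 (0.113), estrus replicate 5 (0.0512) or metestrus replicate 7 (0.0717). Its F test adjusted p was 0.000896. Apcdd1 is itself known as a gene that canonical WNT signalling induces.

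Of the remaining antagonists, Sfrp4 ran from 35.3 to 149.7 CPM, its highest value in metestrus replicate 7 (F test adjusted p = 0.126), and Dkk2 from 21.4 to 51.5 CPM (0.361). The WNT inhibitory factor Wif1 had counts in 4 uteri: 1.55, 11.3 and 0 CPM in metestrus, 2.47, 0 and 3.93 CPM in diestrus, and 0 in all 6 proestrus and estrus uteri. All 33 of its counts were assigned to a transcript that the annotation lists as a retained intron. Whether its coding RNA gave any of these reads was not tested. Sfrp5 had 5 counts and Notum, a deacylase that inactivates WNT, had 10 counts in all libraries together.

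Over the 5 genes of the frizzled-related family the summed level was 99.3 to 104 CPM in proestrus, 203 to 213 CPM in estrus, 168 to 376 CPM in metestrus and 231 to 270 CPM in diestrus. No proestrus sum reached any sum of another stage. Leukocyte markers also rose from proestrus to estrus (sum 109 to 142 CPM against 292 to 374 CPM; 4 of 9 called higher), as did smooth muscle markers (6639 to 9320 CPM against 8937 to 11487 CPM; 5 of 10 called higher). Of 10 stromal markers, 1 was called higher and 3 lower in estrus than in proestrus. The part of these cell types in the rise of the antagonists was not tested.

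R-spondins are secreted proteins that bind Lgr4, Lgr5 and Lgr6 and, through the ubiquitin ligases Znrf3 and Rnf43, keep frizzled receptors at the cell surface. Rspo3 peaked in estrus. The gene lies on GRCm38 chromosome 10, 29452416 to 29535867, minus strand. Its values were 64.6, 62.6 and 64.5 CPM in proestrus, 257, 249 and 212 CPM in estrus, 168, 76.5 and 101 CPM in metestrus and 82.7, 99.6 and 132 CPM in diestrus. The proestrus uteri lay close together, and all 3 estrus uteri were above the 9 others. The rise from proestrus to estrus was 3.74-fold (log2 difference 1.90 ± 0.25 (SE), adjusted p = 0.000447), and the level in diestrus was 2.28-fold below estrus (log2 difference -1.19 ± 0.24 (SE), adjusted p = 0.00309), both in all 12 fits with a library left out. Metestrus was 2.07-fold below estrus (log2 difference -1.05 ± 0.24 (SE), adjusted p = 0.0185), a call lost without estrus replicate 3 (0.0583), estrus replicate 4 (0.0681) or metestrus replicate 6 (0.065), and in a fit of those 2 stages alone (0.08). The F test adjusted p was 0.000652.

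Lgr5, a receptor of R-spondins known as a stem cell gene and a target of canonical signalling, was scarce. It had 3.96, 2.68 and 3.02 CPM in proestrus, 1.84, 1.14 and 1.36 CPM in estrus, 7.73, 5.01 and 12.4 CPM in metestrus and 1.48, 2.94 and 7.87 CPM in diestrus. The estrus uteri held the lowest values of the series, except that diestrus replicate 3 lay among them, and metestrus was above estrus in every uterus. Metestrus was called higher than estrus (adjusted p = 0.0274), but the estrus libraries held 3, 2 and 3 counts, which gave a ratio of summed, scaled counts of 5.88 (exact 95% interval 2.74 to 14.5, counting error only), and the call was lost without estrus replicate 3 (0.0677), 4 (0.0956) or 5 (0.105) or metestrus replicate 7 (0.0769). The F test (0.0396) passed in 3 of 12 such fits, with the highest value, 0.130, without metestrus replicate 7. Rspo1, Lgr4, Znrf3 and Rnf43 did not pass the F test, with adjusted p of 0.219, 0.485, 0.193 and 0.566. Rspo1 ran from 5.89 to 18.6 CPM, Lgr4 from 14.2 to 27.0 CPM, Znrf3 from 28.2 to 64.5 CPM and Rnf43 from 1.12 to 9.27 CPM.

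Inside the cell, Lef1 gave the smallest F test p of all 49 genes (adjusted p = 0.000334). LEF1 is a DNA-binding partner of beta-catenin and a known target of the same pathway. The gene lies on GRCm38 chromosome 3, 131110471 to 131224356, plus strand. Its level was 5.66, 12.3 and 3.02 CPM in proestrus, 5.53, 7.95 and 6.37 CPM in estrus, 17.5, 16.3 and 31.4 CPM in metestrus and 38.6, 44.2 and 50.6 CPM in diestrus. The diestrus uteri were above all others and the metestrus uteri above all of proestrus and estrus. Diestrus exceeded estrus 6.65-fold (log2 difference 2.73 ± 0.38 (SE), adjusted p = 0.000283) and proestrus 6.32-fold (proestrus minus diestrus, log2 difference -2.66 ± 0.37 (SE), adjusted p = 0.000786), with both calls kept in all 12 fits that left out a library. Without proestrus replicate 2, the highest of its stage, the difference from proestrus was 10.2-fold. Metestrus exceeded estrus 3.25-fold (adjusted p = 0.0212), a call lost without estrus replicate 3 (0.0709), estrus replicate 5 (0.0815) or metestrus replicate 7 (0.0519).

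The other TCF factors had their highest means in other stages. Tcf7l2 was highest in estrus, at 44.7, 54.6 and 48.4 CPM in proestrus, 74.9, 66.4 and 67.7 CPM in estrus, 40.7, 39.5 and 58.0 CPM in metestrus and 40.6, 37.8 and 32.6 CPM in diestrus. The 3 estrus values were above the 9 others. Diestrus was 1.88-fold below estrus (log2 difference -0.91 ± 0.17 (SE), adjusted p = 0.00187), which held in all 12 fits, and the F test adjusted p was 0.00753. Metestrus was 1.51-fold below estrus (adjusted p = 0.0431), kept in 1 of the 12.

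Tcf7 was lowest in estrus, at 11.3, 8.03 and 6.05 CPM in proestrus, 3.07, 2.27 and 4.55 CPM in estrus, 11.8, 9.40 and 12.4 CPM in metestrus and 8.91, 9.32 and 8.99 CPM in diestrus. The estrus uteri were below the 9 others. It fell 2.48-fold into estrus (log2 difference -1.31 ± 0.37 (SE), adjusted p = 0.0279), a call lost without proestrus replicate 1 (0.114), proestrus replicate 2 (0.0575), estrus replicate 3 (0.0752) or estrus replicate 4 (0.0924), and in DESeq2 (0.0549) and limma-voom (0.059). Metestrus then exceeded estrus 3.30-fold (log2 difference 1.72 ± 0.36 (SE), adjusted p = 0.013) and diestrus exceeded it 2.67-fold (log2 difference 1.41 ± 0.37 (SE), adjusted p = 0.0134), calls lost only without estrus replicate 4 (0.0516 and 0.0504). The F test (0.0176) failed without estrus replicate 3 (0.0653) or 4 (0.073). Tcf7l1, the repressor of the family, ran from 18.7 to 32.8 CPM (F test adjusted p = 0.924). Of the summed counts of the 4 family genes, Lef1 made up 3.70 to 13.1% in proestrus, 5.20 to 8.14% in estrus, 17.7 to 24.1% in metestrus and 34.8 to 43.1% in diestrus.

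Nkd2 and Axin2 are feedback inhibitors that canonical signalling is known to induce. Nkd2 stood at 13.6, 14.4 and 11.6 CPM in proestrus, 10.4, 15.9 and 13.6 CPM in estrus, 67.0, 34.5 and 40.2 CPM in metestrus and 28.7, 20.6 and 43.8 CPM in diestrus. All 6 metestrus and diestrus uteri were above all 6 proestrus and estrus uteri. Metestrus exceeded estrus 3.54-fold (log2 difference 1.82 ± 0.31 (SE), adjusted p = 0.00423) and proestrus 3.59-fold (log2 difference 1.84 ± 0.31 (SE), adjusted p = 0.00958), in every fit with a library left out. Diestrus exceeded estrus 2.30-fold (adjusted p = 0.0151), a call lost without estrus replicate 3 (0.0603) or diestrus replicate 5 (0.075). The F test adjusted p was 0.00144. Its relative Nkd1 ran from 19.3 to 42.7 CPM, with the 3 proestrus values the lowest, and did not pass (0.0783).

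Axin2, a widely used readout of canonical signalling, gave 47.6, 36.9 and 26.7 CPM in proestrus, 22.7, 28.4 and 27.3 CPM in estrus, 42.7, 29.5 and 20.7 CPM in metestrus and 30.2, 17.7 and 41.0 CPM in diestrus. The stages overlapped, and the F test adjusted p was 0.607. Proestrus had the highest mean (37.1 ± 10.4 CPM, SD, n = 3) and estrus the lowest (26.1 ± 3.00 CPM, SD, n = 3). Only 27.2% of its estimated counts fell in protein-coding transcripts.

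The level of Ctnnb1 could not be read from these tables. The gene held 3.96, 5.89 and 14.1 CPM in proestrus, 10.4, 9.65 and 17.3 CPM in estrus, 14.4, 5.64 and 8.88 CPM in metestrus and 5.94, 4.91 and 4.50 CPM in diestrus (F test adjusted p = 0.21), or 201 estimated counts in 12 libraries, and 1.10% of them were in protein-coding transcripts. Ctnnb1 lies on the plus strand of chromosome 9 (GRCm38, 120929216 to 120960507), and Ulk4, a kinase gene, overlaps it on the minus strand. Of the 3623 bases of the transcript Ctnnb1-201, which codes for the protein, 762 are also present in Ulk4 transcripts on the opposite strand, among them the last 476 bases at the 3' end, where TagSeq reads fall. That transcript was listed at 0 in all libraries, while Ulk4 held 295 to 573 CPM. Whether the counting used strand was not given in the sources used here, and without strand reads of such a pair cannot be told apart. The sum of both genes was 388 to 411 CPM in proestrus, 472 to 512 CPM in estrus, 318 to 588 CPM in metestrus and 300 to 360 CPM in diestrus.

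**Figure D3:**
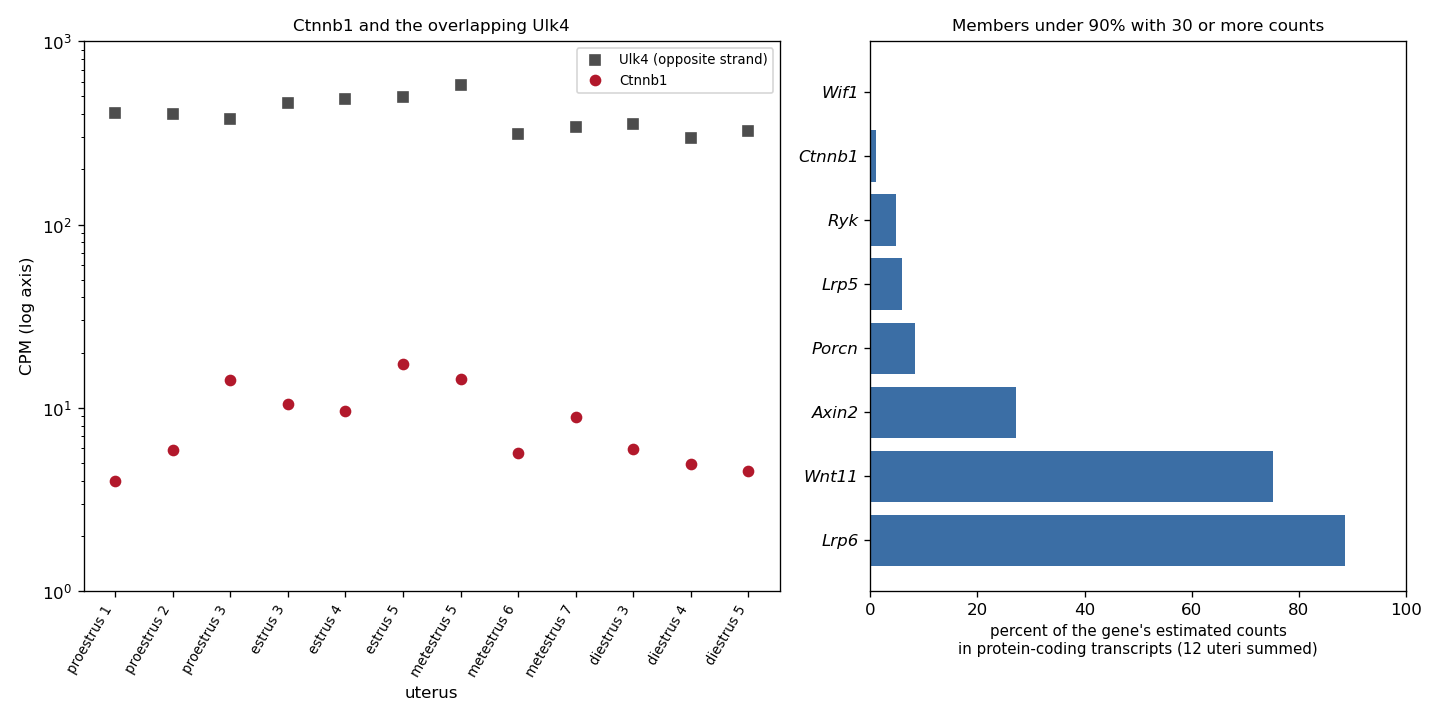
Left, CPM of Ctnnb1 (circles) and of the overlapping Ulk4 (squares) in each uterus on a log axis. Right, the percentage of a gene's estimated counts, summed over 12 uteri, that fell in protein-coding transcripts, for the WNT genes below 90% with 30 counts or more. Ulk4 stays between 295 and 573 CPM and Ctnnb1 between 3.96 and 17.3 CPM, and Ctnnb1 (1.10%) and Wif1 (0%) have almost no counts in coding transcripts.

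From proestrus to estrus, 7 of the 44 tested WNT genes (15.9%) were called, where 17.1% of all tested genes were. Ror1, Sfrp2, Frzb, Dkk3 and Rspo3 rose, as 9.67% of all genes did, and Wnt5a and Tcf7 fell, as 7.46% did. The median log2 difference of the 44 genes was 0.28 against 0.02 for all genes. The count was 4 without estrus replicate 4, 12 in a fit of these 2 stages alone and also 12 without the 3 metestrus uteri. Among all genes those fits called 1214, 2788 and 2810, in place of 2064.

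From estrus to metestrus, 9 genes (20.5%) were called against 7.56% of all genes: 6 rose (Sfrp1, Apcdd1, Lgr5, Nkd2, Lef1, Tcf7; 2.83% of all genes did) and 3 fell (Wnt16, Rspo3, Tcf7l2; 4.73% did). The median was 0.17 against 0.01. The number was 3, 3 and 4 without estrus replicate 3, 4 or 5. Among all genes it was 515, 431 and 340 in those fits, in place of 911. Apcdd1 and Nkd2 were the ones called in every fit with a library left out. At this step 4 of 10 epithelial markers were called lower, 3 of 10 smooth muscle markers lower, and 3 of 10 stromal markers higher and 1 lower, and their part in these differences was not tested.

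From metestrus to diestrus none of the 44 was called, with 0.224% of all genes called and 11 of the 44 at an unadjusted p under 0.05 in edgeR. In edgeR 0.0913% of all genes were lower in diestrus. DESeq2, which called 148 of the 12052 genes at this step where edgeR called 27, called 2 of the 44, Wnt7a and Wnt7b, both lower in diestrus, and limma-voom called none. The median was -0.27 against -0.02. Without metestrus replicate 7, edgeR called Wnt7a.

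From diestrus back to proestrus, 10 genes (22.7%) were called against 8.53% of all genes, 9 of them lower in proestrus (3.91% of all genes were) and 1, Ror2, higher (4.62% were). The 9 were Wnt11, Fzd1, Fzd2, Sfrp1, Sfrp2, Dkk3, Apcdd1, Nkd2 and Lef1. The call of Nkd2 was lost without proestrus replicate 1 (0.0756), 2 (0.0795) or 3 (0.109) or diestrus replicate 3 (0.058) or 5 (0.132). It was also lost in limma-voom (0.0682) and with counts rebuilt from TPM (0.0883). Those of Dkk3 and Ror2 were lost in the fits named above for each. The median over the 44 was -0.08 against 0.00, so the genes that were not called lay on both sides of no change. Epithelial markers moved the other way, 8 of 10 being higher and 2 lower in proestrus, and their part in these differences was not tested.

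Across opposite stages, metestrus exceeded proestrus for 8 genes and was lower for none (18.2% called against 4.31% of all genes; 2.49% of all genes were higher): Fzd1, Sfrp1, Sfrp2, Frzb, Dkk3, Apcdd1, Nkd2 and Lef1. That count was 4 without proestrus replicate 2 or 3 or metestrus replicate 7, 5 without proestrus replicate 1 or estrus replicate 5, and 2 in a fit of these 2 stages alone, with Sfrp2, Dkk3 and Nkd2 called in every fit with a library left out. Among all genes, 519 calls became 78, 108 and 211 without proestrus replicate 2 or 3 or metestrus replicate 7. They became 188 and 333 without proestrus replicate 1 or estrus replicate 5, and 42 in the fit of 2 stages. Diestrus differed from estrus in 16 genes (36.4% against 22.8% of all genes), the most of any pair, 10 higher (Wnt5a, Wnt11, Fzd1, Fzd2, Sfrp1, Sfrp2, Apcdd1, Nkd2, Lef1, Tcf7; 9.73% of all genes were) and 6 lower (Wnt7b, Wnt16, Lrp6, Ror2, Rspo3, Tcf7l2; 13% were), with a median of -0.22 against 0.00. The number fell to 8, 10 and 9 without estrus replicate 3, 4 or 5 and to 10 without diestrus replicate 3. Among all genes those fits called 2085, 1976, 1909 and 1995, in place of 2745. Fzd2, Sfrp1, Apcdd1, Rspo3, Lef1 and Tcf7l2 were called in every fit with a library left out. Fzd1 and Lrp6 lost this call without any one estrus or diestrus library, and Ror2 without any one estrus library or diestrus replicate 3 or 4. DESeq2 called none of Fzd1, Lrp6 and Ror2 (adjusted p of 0.0642, 0.0601 and 0.0699). Of the markers, 9 of 10 epithelial ones were lower in diestrus than in estrus, 3 smooth muscle ones lower and 1 higher, 3 leukocyte ones lower, and 3 stromal ones higher and 1 lower, and their part was not tested. The 6 comparisons share samples, so their counts are not independent of each other.

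**Figure D4:**
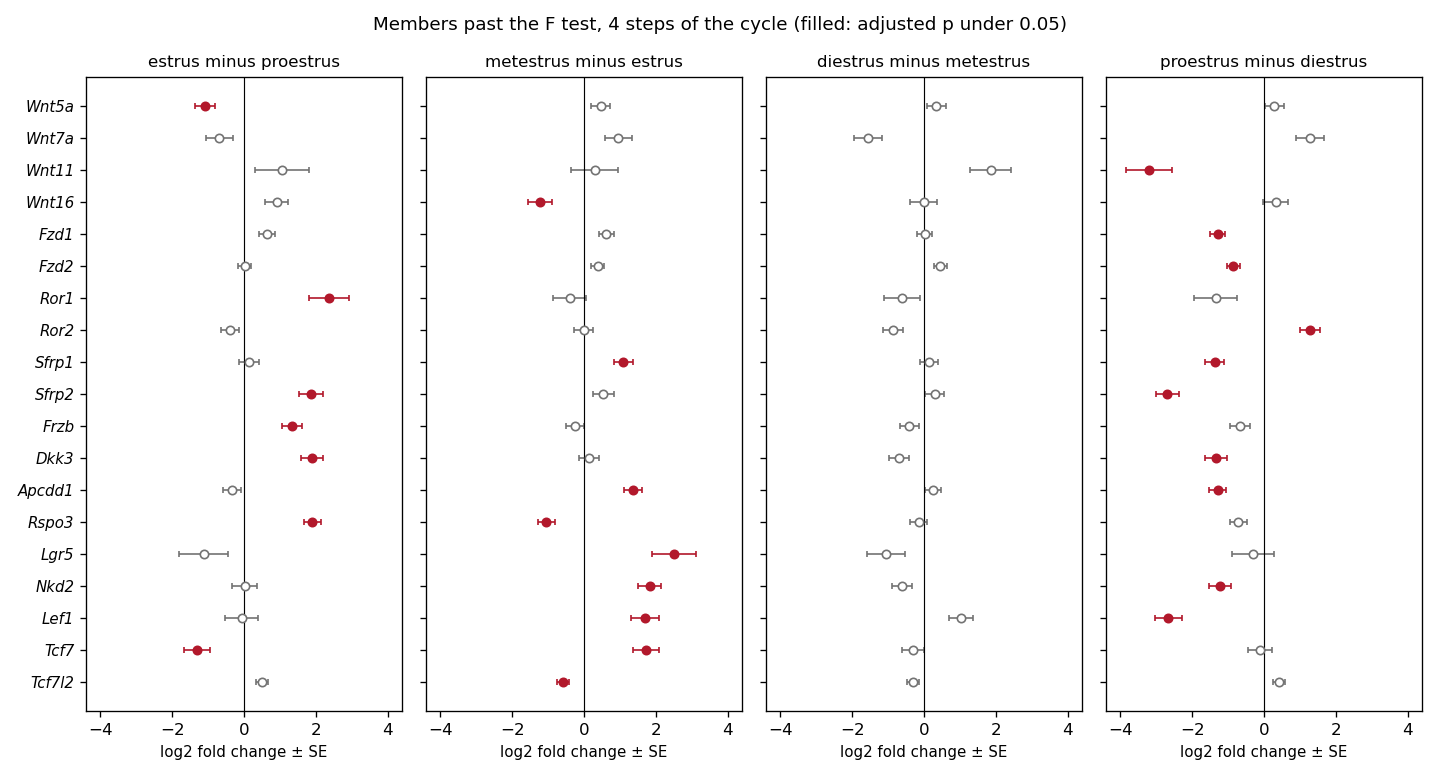
Log2 fold change with its standard error (edgeR, 12 uteri) of the 19 WNT genes that passed the F test, for the 4 steps of the cycle in order. Filled red points have an adjusted p under 0.05: 7 genes from proestrus to estrus, 9 from estrus to metestrus, none from metestrus to diestrus and 10 from diestrus to proestrus.

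Beyond the 49, a list of 106 other WNT pathway genes gave 79 that could be tested, of which 26 (32.9%) passed the F test, against 23.2% of all genes. Of 24 tested genes of the destruction complex and signal relay 3 passed, of 13 nuclear cofactors 4, of 14 planar polarity genes 6, of 13 further ligands and extracellular genes 5, and of 15 transcriptional targets 8. Transcriptional targets were not called in 1 direction: of the 15, 4 were higher and 4 lower in estrus than in proestrus (9.67 and 7.46% of all genes), and 5 were higher and 2 lower in diestrus than in estrus (9.73 and 13%).

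The 6 with the smallest p were Bcl9, Lgr6, Msx1, Sox9, Ccnd1 and Celsr2. Lgr6, an R-spondin receptor, stood at 33.4, 22.5 and 63.5 CPM in proestrus, 4.30, 6.81 and 5.46 CPM in estrus, 6.18, 12.5 and 2.96 CPM in metestrus and 7.92, 6.87 and 6.18 CPM in diestrus, with every proestrus uterus above the 9 others and a fall into estrus of -2.83 ± 0.45 (SE) on the log2 scale (adjusted p = 0.00154). Bcl9, a coactivator that binds beta-catenin, was at 47.6, 56.7 and 48.4 CPM in proestrus, 57.7, 54.5 and 65.5 CPM in estrus, 31.4, 23.2 and 18.9 CPM in metestrus and 21.3, 15.2 and 19.7 CPM in diestrus, and diestrus was below estrus by a log2 difference of -1.66 ± 0.20 (SE) (adjusted p = 0.0001). Its 6 proestrus and estrus values were above its 6 metestrus and diestrus values, the reverse of Nkd2, Sfrp1 and Apcdd1. In diestrus against estrus, the homeobox gene Msx1 was higher (log2 difference 2.50 ± 0.37 (SE), adjusted p = 0.000451), as was the cyclin Ccnd1 (log2 difference 1.18 ± 0.22 (SE), adjusted p = 0.00191). In the same comparison the transcription factor Sox9 was lower (log2 difference -2.10 ± 0.31 (SE), adjusted p = 0.000461), as was the planar polarity cadherin Celsr2 (log2 difference -1.88 ± 0.34 (SE), adjusted p = 0.00175). With counts rebuilt from TPM Celsr2 lost this call (adjusted p = 0.112) and that of its F test (0.0752). Genes known as targets of canonical signalling had their highest means in different stages. Means were highest in metestrus for Nkd2 and Lgr5, in diestrus for Lef1, Apcdd1 and Msx1, in estrus for Sox9 and in proestrus for Ccnd1. Axin2 had no called difference over the stages. Between metestrus and diestrus none of Nkd2, Lgr5, Lef1, Apcdd1 and Msx1 (adjusted p = 0.473) was called. Nor was Ccnd1 called between proestrus and diestrus (adjusted p = 0.519).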

How the data were processed

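3' TagSeq libraries of 12 whole uteri were deposited by the authors as 1 kallisto-style table per sample, with estimated counts and TPM per transcript and the transcript's length and effective length, per the file headers. FastQC, kallisto and DESeq2 are named, per the submitters' processing notes; the transcript set, genome build, options and strand setting are not given in the sources used here. The estimated counts of GENCODE M21 (GRCm38) transcripts, which were 97.7% of the listed transcripts, were summed per gene and rounded to whole numbers. The transcripts that matched no gene held 0.619 to 0.774% of counts and were left out of library sizes and tests. TPM, the authors' values per effective length, was used only for shares of the ligand sum and for 1 alternative, since the number of 3' reads does not grow with transcript length.

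Genes with low counts were removed (filterByExpr), TMM factors were computed, and edgeR 4.0.16 (R 4.3.3) gave quasi-likelihood F tests over the 4 stages and 6 two-sided contrasts from 1 fit of all 12 samples, with Benjamini-Hochberg adjustment over 12052 genes and a threshold of 0.05. Fold changes and their standard errors (SE) come from that fit. The procedure was tested on simulated data. Libraries held 1652841 to 2200563 counts, and the limit of 3 counts covers counting error only. Alternatives were DESeq2 1.42.0, limma-voom (limma 3.58.1), library totals in place of TMM, other count filters, counts rebuilt from TPM, fits of 2 stages, a replicate block and each library left out.

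The members and lists were chosen with earlier results of these data known. Values in every sample are given for each member past the F test and for Wnt4, Wnt5a, Wnt7a, Fzd6, Lgr5, Axin2, Lef1, Ctnnb1 and Wif1. Other members are given by range, and other pathway genes by counts and the 6 smallest p-values. Wnt7b, Lrp6, Nkd1 and Wnt6 were given pair or stage values after those were seen. Promoter windows come from RefSeq tables (GRCm38.p6).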

Additional observations from a re-analysis of the deposited data

How the results depend on the processing

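No named result changed direction under an alternative in which its gene could be tested, and the counts of called genes moved. With counts rebuilt from TPM, which left 31 of the members to be tested, 12 members differed over the 4 stages in place of 19, 4 in place of 7 from proestrus to estrus, 3 in place of 9 from estrus to metestrus, 4 in place of 8 between metestrus and proestrus and 8 in place of 16 between diestrus and estrus; part of that fall is the smaller number tested, which left out Wnt11, Ror1, Lgr5 and Tcf7. Over all 9683 genes tested there, the same comparisons called 1674, 1272, 409, 157 and 1799 genes, in place of 2793, 2064, 911, 519 and 2745. Of the 84 named results that could be tested with counts from TPM, 29 lost their call. Fits of 2 stages alone called 12 from proestrus to estrus, 5 from estrus to metestrus and 2 between metestrus and proestrus. Among all genes those fits called 2788 of 11270, 300 of 11124 and 42 of 11179. Without the 3 metestrus uteri, an alternative chosen after seeing the data, 12 were called from proestrus to estrus, with 2810 of 11770 among all genes. From metestrus to diestrus, where edgeR called 0, DESeq2 called 2 and edgeR without the count filter 2, with 148 and 256 called among all genes where edgeR called 27. The cause of these shifts was otherwise not tested.

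With each library left out in turn, the counts ran from 14 to 22 over the 4 stages, 4 to 10 from proestrus to estrus, 3 to 8 from estrus to metestrus, 0 to 1 from metestrus to diestrus, 8 to 13 between proestrus and diestrus, 4 to 12 between metestrus and proestrus and 8 to 18 between diestrus and estrus. Counts over all genes moved too, for example from 1907 to 3428 over the 4 stages and from 340 to 1364 from estrus to metestrus. Of 50 pair calls of named genes, 22 were kept in all 12 such fits.

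Estrus and diestrus share the replicate numbers 3, 4 and 5. Deviations from the stage means correlated at -0.043, 0.013 and -0.017 between uteri of the same number. With 3 uteri per stage, this cannot tell whether the numbers pair the uteri. With the replicate block, 18 members differed between diestrus and estrus in the 6 samples and 19 in a fit of all 12. Both fits gained Wnt4, Frzb, Dkk3 and Ctnnb1 and lost Ror2, and the fit of the 6 samples was also without Wnt7b. The level of Ctnnb1 could not be read, as given above, so its call is not a result on that gene.

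At this depth a difference was not detectable in genes with 3 counts (1.37 to 1.83 CPM) or fewer in every library, such as Wnt10b, Sfrp5 and Notum.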
